A study of Mus musculus with 4 samples.

Results

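The 7 genes described here encode receptors, an adaptor and a transcription factor best known from natural killer (NK) cells: Ncr1, Klrk1, Fcgr3, Cd244a, Klrg1, Fcer1g and Eomes. They were taken from a list of names, without a threshold on any value, and all 7 were measured among 22180 genes, each by 1 probe set. The list was chosen with earlier results of these data known. Their levels were followed over 4 whole-transcript arrays, each made from pooled C57Bl/6 mice of 8 to 10 weeks. The first array held intraepithelial lymphocytes (IEL, the lymphocytes that sit between epithelial cells of the gut) of the colon from mice that drank vancomycin, ampicillin, neomycin and metronidazole for 7 days and were then recolonized with bacteria from untreated littermates over 7 days. The second held colon IEL of unmanipulated mice, the third IEL of the small intestine of unmanipulated mice, and the last, titled LP, was labelled as T cells of the colon lamina propria of such mice. A pool held 10 animals, 5 male and 5 female; the labels do not settle whether each array had its own pool, as a passage of the design text has it. Cells on all 4 arrays had gone through magnetic negative selection for T cells with an added antibody against EpCAM. The labels do not list the antibodies of that kit, and the strategy for recolonization is given both as co-housing and as soiled bedding.

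NK cells weigh activating against inhibitory receptors, and many intraepithelial T cells carry the same receptors next to their antigen receptor. The activating receptors have short tails and signal through small membrane adaptors: the Fc receptor gamma chain (Fcer1g) serves NKp46 (Ncr1) and the low-affinity IgG receptor (Fcgr3), while the stress-ligand receptor NKG2D (Klrk1) uses the adaptor encoded by Hcst and, in mice, also the one encoded by Tyrobp. Cd244a encodes a SLAM family receptor that binds CD48, Klrg1 an inhibitory lectin that binds E-cadherin on epithelium, and Eomes a T-box transcription factor of NK cells and memory CD8 T cells.

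Of the 7 genes, 6 had an entry in the RefSeq promoter table of the mouse assembly GRCm38.p6; Klrg1 had none. The 250 bases before the most upstream start are shown for the activating receptors Ncr1, Klrk1 and Fcgr3 and for the adaptor Fcer1g, because the levels of receptor and adaptor are set side by side below. They lie at chr7:4337465-4337714 (plus strand), chr6:129623865-129624114 (minus strand), chr1:171059404-171059653 (minus strand) and chr1:171234350-171234599 (minus strand). Capitals mark the letters TGTGGT (named RUNX here) or AGGAAG (named ETS), read on either strand.
Ncr1: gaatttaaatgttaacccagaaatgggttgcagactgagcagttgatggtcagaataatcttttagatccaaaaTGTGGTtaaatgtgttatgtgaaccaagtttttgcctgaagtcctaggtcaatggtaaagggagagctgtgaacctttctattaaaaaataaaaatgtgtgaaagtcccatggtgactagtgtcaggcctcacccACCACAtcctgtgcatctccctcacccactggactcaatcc
Klrk1: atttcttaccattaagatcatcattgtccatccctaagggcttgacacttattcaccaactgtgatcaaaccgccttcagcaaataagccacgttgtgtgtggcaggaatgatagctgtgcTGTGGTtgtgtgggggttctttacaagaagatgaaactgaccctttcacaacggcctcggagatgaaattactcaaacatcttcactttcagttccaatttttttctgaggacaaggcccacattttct
Fcgr3: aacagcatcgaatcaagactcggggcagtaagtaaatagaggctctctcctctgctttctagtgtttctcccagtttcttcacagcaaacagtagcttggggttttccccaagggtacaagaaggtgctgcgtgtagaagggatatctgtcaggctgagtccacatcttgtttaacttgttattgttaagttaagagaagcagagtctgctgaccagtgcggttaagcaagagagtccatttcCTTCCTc
Fcer1g: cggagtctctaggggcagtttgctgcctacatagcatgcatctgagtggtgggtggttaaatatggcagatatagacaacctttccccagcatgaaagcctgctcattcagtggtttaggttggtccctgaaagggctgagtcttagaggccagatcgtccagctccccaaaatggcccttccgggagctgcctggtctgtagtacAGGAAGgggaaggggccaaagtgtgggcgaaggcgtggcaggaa
The RUNX letters stood in 2 of the 6 promoters, those of Ncr1 (2 matches) and Klrk1 (1 match), against 14.2% of 27025 promoter windows of the same length. The ETS letters stood in 2 of the 6, those of Fcgr3 and Fcer1g, against 29.2% of all windows. The T-box letters AGGTGT (12.0% of all windows) and the GATA letters AGATAA (10.2%) stood in 0 of the 6. No match overlapped another. These are matches of letters in a window and were not set against any binding data.

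Before the members are compared, the content of the arrays has to be stated. The LP array carried little T cell signal: 11 T cell markers summed to 67.8 on the linear scale there, against 2505 in recolonized colon IEL, 1884 in colon IEL and 2486 in small intestinal IEL. Its 10 epithelial markers summed to 4565. What it held thus ran counter to the label, and it is named the LP array by its title alone. The epithelial markers summed to 556 on the recolonized array, 277 on the colon array and 2564 on the small intestinal array, and 10 B cell and plasma cell markers to 55.5, 132 and 796 in the same order. The median log2 level of all genes was 2.39, 2.41, 2.24 and 2.18 on the recolonized, colon IEL, small intestinal IEL and LP arrays. With 1 array per group there is no replicate and no test, and fewer cells of a type cannot be told apart from less RNA per cell. Levels of different genes are not compared, since each probe set has its own brightness. A gene near its array's median may be at the low end of what the array can read.

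**Figure D1:**
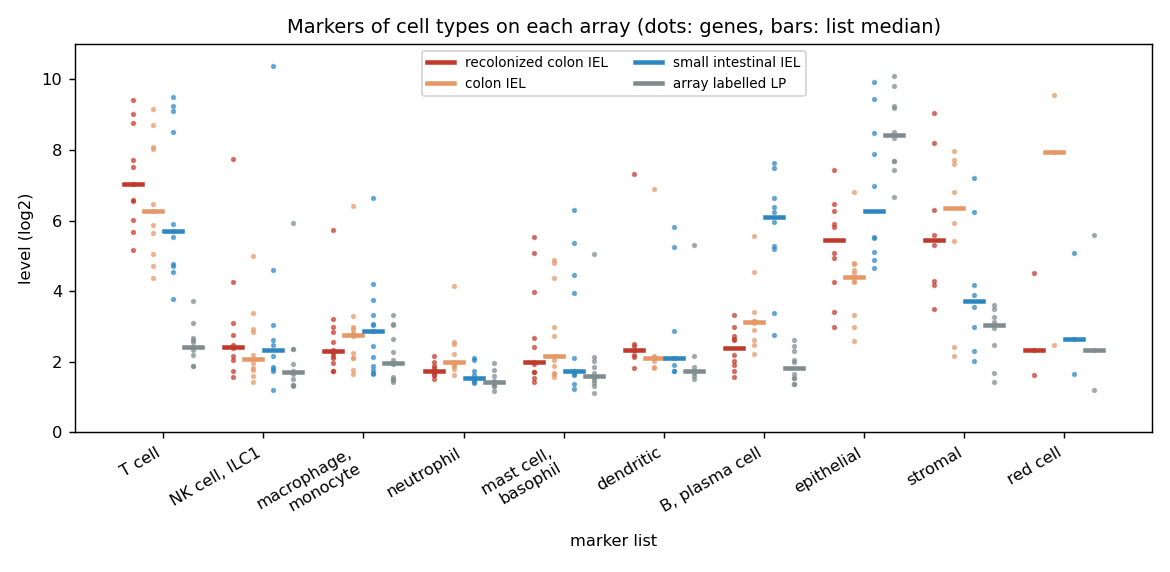
Log2 levels of marker genes (dots) and the median of each marker list (bars) for 10 lists on the recolonized colon IEL, colon IEL, small intestinal IEL and LP arrays. T cell markers have medians of 7.04, 6.28 and 5.71 on the 3 IEL arrays and 2.41 on the LP array, where epithelial markers have a median of 8.42.

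Ncr1, which encodes the activating receptor NKp46, had log2 levels of 3.76 on the recolonized array, 2.24 on the colon array, 2.60 on the small intestinal array and 1.81 on the LP array. These lay at the 81.3rd, 43.6th, 58.3rd and 37.8th percentiles of all genes on the same arrays. The recolonized array stood above the other three, and both the colon IEL and the LP array were below their own median.

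Klrk1, the receptor for stress-induced ligands, had levels of 2.96, 2.22, 2.05 and 1.35 on the recolonized, colon IEL, small intestinal IEL and LP arrays. Only the recolonized value, at the 66.4th percentile, was above its array's median. The colon and small intestinal IEL arrays were 0.17 apart, and the sign of that gap turned under quantile normalization and the lowess correction.

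Fcgr3, the low-affinity IgG receptor, followed another order. Its levels were 2.44 on the recolonized array, 3.51 on the colon array, 2.28 on the small intestinal array and 1.84 on the LP array. The colon IEL array was highest, at the 79.7th percentile, and the recolonized and small intestinal arrays sat within 0.06 of their own medians.

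Cd244a, the SLAM family receptor, was above the median on all 4 arrays, with levels of 4.80, 4.84, 6.80 and 2.21 in recolonized colon IEL, colon IEL, small intestinal IEL and the LP array. Small intestinal IEL were highest, at the 96.8th percentile. The colon arrays were 0.04 apart, and the LP array was at its median.

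Klrg1, the inhibitory receptor, had levels of 3.45, 2.01, 1.84 and 1.52 in the same order of arrays. As with Klrk1, the recolonized array alone was above its median, at the 76.5th percentile. The colon and small intestinal IEL arrays were at the 33.2nd and 35.8th percentiles.

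Fcer1g, the adaptor, had levels of 7.02 on the recolonized array, 5.56 on the colon array, 7.87 on the small intestinal array and 3.18 on the LP array. The 3 IEL values lay at the 98.6th, 96.8th and 98.7th percentiles of their arrays. Its largest gap between arrays was 4.69, close to that of Cd244a with 4.59.

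Eomes, the transcription factor, had the narrowest range of the 7 genes, 0.85, with levels of 2.41 on the recolonized array, 2.004 on the colon array, 1.56 on the small intestinal array and 1.60 on the LP array. It was 0.02 above the median on the recolonized array and below it on the other arrays. So no array placed it clearly above the middle of all genes.

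**Figure D2:**
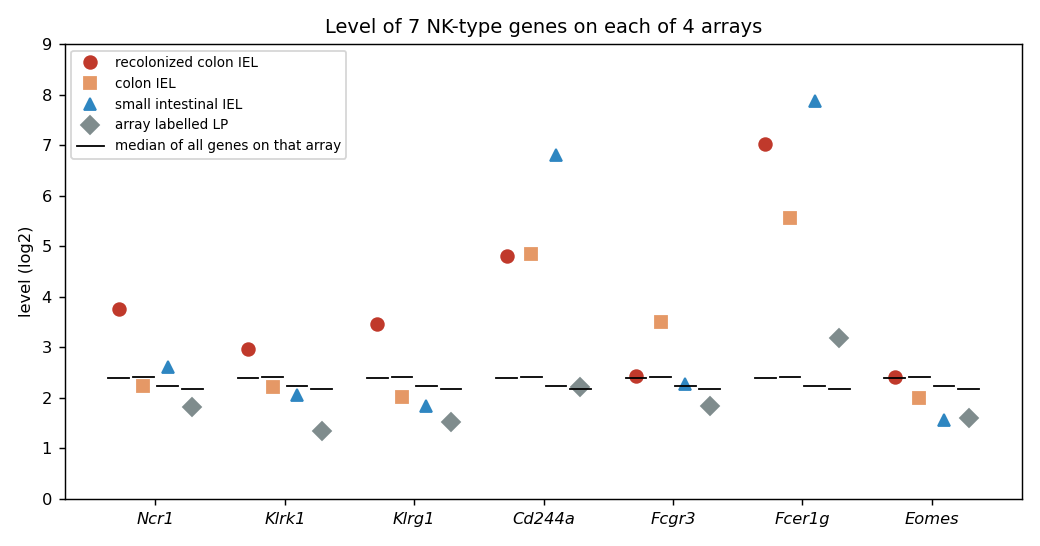
Log2 level of each gene (x axis) on the recolonized colon IEL, colon IEL, small intestinal IEL and LP arrays, 1 point per array, with the median of all genes on that array as a short line. Cd244a and Fcer1g stand well above the lines on the 3 IEL arrays, Fcgr3 is highest in colon IEL at 3.51, and Ncr1, Klrk1 and Klrg1 are highest on the recolonized array at 3.76, 2.96 and 3.45.

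Counted over genes, all 7 were at or above the median level on the recolonized array, 3 on the colon array, 4 on the small intestinal array and 2 on the LP array. The highest level of a gene fell on the recolonized array for 4 of them (Ncr1, Klrk1, Klrg1 and Eomes), on the colon array for 1 and on the small intestinal array for 2. Of all 22180 genes, 26.1% were highest on the recolonized array, 29.0% on the colon array, 15.9% on the small intestinal array and 29.0% on the LP array. The lowest level of a member fell on the LP array for 6 of 7, as it did for 35.9% of all genes, and T cell markers were lowest there too. Since the members were chosen with earlier results of these data known, these counts describe them and carry no further weight.

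Recolonized colon IEL were set against unmanipulated colon IEL to ask how colon IEL differ after antibiotics and the return of bacteria; with no array of mice given antibiotics alone among those analysed here, these steps cannot be told apart. Ncr1, Fcer1g and Klrg1 were at least 2-fold higher on the recolonized array and Fcgr3 was at least 2-fold lower, while Klrk1, Eomes and Cd244a were within 2-fold. On the log2 scale Ncr1 was higher by 1.52, Fcer1g by 1.45 and Klrg1 by 1.44. The colon levels of Ncr1 and Klrg1 were below that array's median, where the array may not read low levels in full, so no linear fold is given for these genes. Fcgr3 had a log2 difference of -1.07. Klrk1 differed by 0.74, Eomes by 0.40 and Cd244a by -0.04.

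A difference counted when the gene was at or above the median of all genes on the brighter array of the pair, and 12443 genes met this floor. Of these genes, 6.04% were at least 2-fold higher (751 genes) and 3.06% at least 2-fold lower (381 genes), and their median difference was 0.13. After quantile normalization 834 were higher and 874 lower. The counts among the 7 members, all of which met the floor, were 3 higher and 1 lower, with a median difference of 0.74. Only 3 of the 7 (Fcgr3, Cd244a and Fcer1g) were above the median on both arrays. Ncr1, Klrk1, Klrg1 and Eomes met the floor through the recolonized array alone, so their count carries no weight of its own. The T cell markers had a median difference of 0.74 in the same comparison, with 2 of 11 at least 2-fold higher, and the epithelial markers one of 0.82. The Fcer1g difference was 0.97, just under 2-fold, after a lowess correction against level; Ncr1, Klrg1 and Fcgr3 stayed past 2-fold under every scaling tried.

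Levels of signalling partners were read beside the receptors. Hcst, the adaptor of NKG2D, had levels of 5.11 on the recolonized array and 3.42 on the colon array. It was at 4.07 on the small intestinal array and 2.47 on the LP array. Like Klrk1 it was highest on the recolonized array, as were 26.1% of all genes. In colon minus small intestinal IEL Hcst differed by -0.64 and Klrk1 by 0.17. The Hcst difference between recolonized and unmanipulated colon IEL was 1.69. Tyrobp, which serves several NK receptors, had levels of 3.42, 3.58, 5.00 and 2.25 in the same order and differed by -0.16 in that comparison. In the list of 17 adaptors and kinases, 16 were measured and 14 met the floor. On the recolonized array 3 were at least 2-fold higher (Hcst, Fcer1g and Lat, a T cell receptor scaffold) and 0 lower, with a median of 0.42. The shares over all genes above the floor were 6.04% higher and 3.06% lower, with a median of 0.13. The list median was 0.19 after quantile normalization and 0.18 after the lowess correction.

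Among the other lists of receptors, effectors and regulators the counts between the recolonized and the unmanipulated colon array were as follows. They stand beside shares of 6.04% higher and 3.06% lower over all genes above the floor. Klrg1 and Ncr1 met the floor through the recolonized array alone, so nothing is read from the counts that rest on them. Of 18 measured lectin-type NK receptors, 10 met the floor, and 1 of these, Klrg1, was at least 2-fold higher. Klrc2 and Klrg2 differed by 0.78 and 0.77. Of 17 immunoglobulin-type receptors, 14 met the floor and 1, Ncr1, was at least 2-fold higher, followed by the inhibitory collagen receptor Lair1 with 0.88 and the SLAM family receptor Slamf6 with 0.79. Among 17 cytotoxic effector genes, Gzma, which encodes granzyme A, had levels of 7.73 on the recolonized array and 4.98 on the colon array, and Prf1, which encodes perforin, 5.24 and 4.17; these were the 2 genes higher by 2-fold or more of the 14 that met the floor. Among 15 measured transcription factors, Bcl11b, a T cell identity factor, was higher by 1.96 and was the 1 gene past 2-fold, whereas Irf8 had -0.99. Marker lists of other cells also differed between these arrays: of the genes above the floor, 4 of 10 epithelial markers were at least 2-fold higher on the recolonized array, 4 of 9 B cell markers and 2 of 3 red cell markers were lower, and of 8 stromal markers 3 were higher and 3 lower. Their part in the differences of the receptor genes was not tested.

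**Figure D3:**
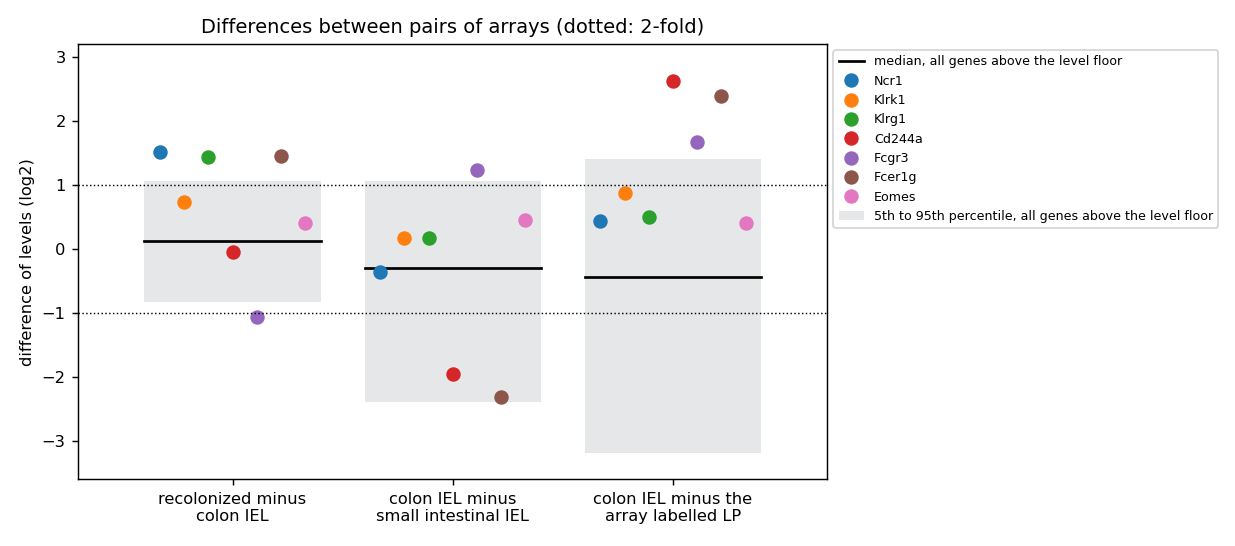
Log2 difference of each gene in 3 comparisons of array pairs; grey bars span the 5th to 95th percentile of all genes above the level floor, black lines are their median and dotted lines mark 2-fold. Ncr1, Klrg1 and Fcer1g lie above the grey bar for recolonized minus colon IEL and Fcgr3 below it, while Fcgr3 lies above it and Cd244a and Fcer1g lie in its lower part for colon minus small intestinal IEL.

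Colon IEL were set against small intestinal IEL to ask how the receptors differ along the gut. The adaptor Fcer1g and the SLAM receptor Cd244a were lower in colon IEL, with log2 differences of -2.31 and -1.96, and Fcgr3 was higher, by 1.23. The small intestinal level of Fcgr3 was only 0.04 above that array's median. Ncr1 differed by -0.36. Klrk1 and Klrg1 differed by 0.17 each and Eomes by 0.45, all 3 from levels below the median on both arrays.

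The floor was met by 12551 genes, whose median difference was -0.30; 5.98% of them (751 genes) were higher by 2-fold or more in colon IEL and 24.4% (3059 genes) were lower. After quantile normalization 1650 genes were higher and 1674 lower. Of the 7 members 4 met the floor, and of these 1 was higher and 2 lower. Lower values were thus common on the colon array in general, and the difference of Cd244a was -0.74 after quantile normalization and -0.96 after the lowess correction, within 2-fold. That of Fcer1g was -1.08 and -1.32 under the same settings. The recolonized array set against small intestinal IEL gave 2 higher (Ncr1 with 1.16 and Klrg1 with 1.61, against 4.76% of all genes) and 1 lower (Cd244a with -2.002, against 17.9%). Klrg1 met the floor through the recolonized array alone, so nothing is read from that count. Fcgr3 had a difference of 0.16 and Fcer1g one of -0.85 in that pair. After quantile normalization Fcer1g differed by -0.05 and Cd244a by -1.15, and 1219 of all genes were higher and 1257 lower instead of 589 and 2219. These comparisons share the small intestinal array, so their values are given side by side.

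Other receptors of the same families showed the following in colon against small intestinal IEL. Klrd1, which encodes CD94, the partner chain of the NKG2 receptors, had levels of 6.58 on the recolonized array, 6.35 on the colon array, 7.91 on the small intestinal array and 2.43 on the LP array. Its difference between colon and small intestinal IEL was -1.56. Among the lectin-type receptors, 7 met the floor, 3 were lower by 2-fold or more in colon IEL (Klrd1, Klra5 and Klri1) and 0 higher. Among the immunoglobulin-type receptors, 15 met the floor and 6 were lower, including the inhibitory receptors Tigit with -1.77 and Lilrb4a with -1.67, and 0 were higher. Of all genes that met the floor, 24.4% were lower and 5.98% higher, with a median difference of -0.30. Over all measured genes of a list the median was -0.10 for the lectin-type and -0.36 for the immunoglobulin-type receptors. After quantile normalization these medians were -0.29 and -0.22.

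Of the adaptors and kinases, 7 of 15 above the floor were lower in colon IEL and 0 higher, led by the SLAM adaptor Sh2d1b1 at 1.79 in colon IEL against 4.30 in small intestinal IEL. Fcer1g, the phospholipase Plcg2 with -1.87 and the lipid phosphatase Inpp5d with -1.86 followed. B cells also express Plcg2 and Inpp5d, and B cell markers had a median difference of -2.42 in this comparison, with 8 of 10 at least 2-fold lower; the part of B cells in these differences was not tested. Among the cytotoxic effector genes, 11 of 15 above the floor were lower in colon IEL and 0 higher. Of all genes above the floor, 24.4% were lower and 5.98% higher. The adaptor and cytotoxic lists moved with the scaling: over all measured genes the median of the adaptors and kinases was -0.76, and -0.07 after quantile normalization and -0.16 after the lowess correction, and that of the cytotoxic genes was -1.52, -0.52 and -0.76. The T cell markers had a median of 0.10, which was 1.29 and 1.10 under those settings.

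**Figure D4:**
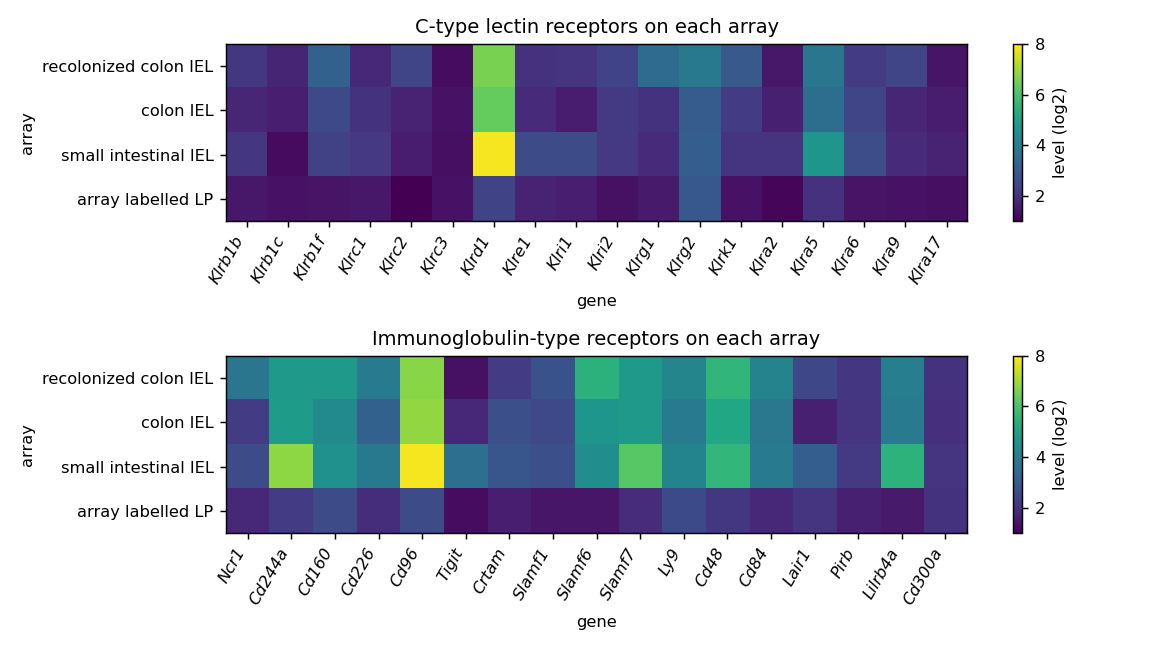
Log2 levels of 18 lectin-type and 17 immunoglobulin-type NK receptors (columns) on the recolonized colon IEL, colon IEL, small intestinal IEL and LP arrays (rows, top to bottom). Klrd1 and Cd96 reach 7.91 and 7.90 in small intestinal IEL, and on the LP array 16 of the 18 lectin-type receptors lie below the array's median.

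Fcgr3 was followed further because its order over the arrays differed from that of its adaptor. In the Fc receptor family of 10 genes, the inhibitory IgG receptor Fcgr2b had levels of 2.66 in recolonized colon IEL, 3.28 in colon IEL, 4.52 in small intestinal IEL and 2.54 on the LP array. Fcer2a, the low-affinity IgE receptor of B cells, was at 1.90, 2.49, 5.20 and 1.38. Both were highest in small intestinal IEL, unlike Fcgr3. In colon against small intestinal IEL, 1 of the 7 family genes above the floor was at least 2-fold higher, Fcgr3, and 5 were lower. Of all genes above the floor, 5.98% were higher and 24.4% lower. The lower family genes were Fcer1g, Fcgr2b, Fcer2a, Fcrla and Fcgrt, the last of them highest on the LP array at 7.10. In the same pair B cell markers had a median difference of -2.42 and epithelial markers one of -1.99. The part of B cells and epithelial cells in these differences was not tested.

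Fcgr3 is also made by macrophages, neutrophils and mast cells. The 13 macrophage and monocyte markers summed to 118 on the recolonized array, 157 on the colon array, 189 on the small intestinal array and 64.7 on the LP array. Of these markers 8 of 13 were at or above the median on the colon array, and Cd14, C1qb, Mrc1, Ms4a7 and Ccr2 were below it. The 9 neutrophil markers summed to 31.5, 51.9, 28.9 and 25.6 in the same order; 3 of them were above the median in colon IEL and 0 on the other arrays, with Retnlg at 4.15 in colon IEL and S100a8 and S100a9 below the median there. The 11 mast cell and basophil markers summed to 127, 114, 179 and 64.4, and the IgE receptor genes Fcer1a and Ms4a2 were below the median on all 4 arrays. Some markers of these cells were, like Fcgr3, highest in colon IEL. The basophil protease gene Mcpt8 was at 1.70, 2.74, 1.74 and 1.85, and the mast cell tryptase gene Tpsb2 at 2.42, 2.99, 2.10 and 2.03. The macrophage gene Adgre1 was at 1.96, 2.75, 1.69 and 1.48. Other markers of the same lists were highest in small intestinal IEL instead. Mcpt1 was at 3.96, 4.38, 6.29 and 2.12, and Mcpt2 at 2.66, 2.18, 4.45 and 1.69. Cd68 was at 3.21, 3.29, 4.21 and 3.32, and C1qb at 2.12, 2.25, 3.74 and 2.26. Red cell markers were high on the same array as Fcgr3, with a sum of 1004 over 3 genes in colon IEL against 31.1 on the recolonized array. The part of these cells in the Fcgr3 level was not tested.

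NK cells and group 1 innate lymphoid cells were also looked for through 10 markers other than the members. They summed to 273 on the recolonized array, 77.9 on the colon array, 1390 on the small intestinal array and 92.6 on the LP array, with Gzma, which cytotoxic T cells also express, at 7.73, 4.98, 10.38 and 2.36. Such sums are weighted to the brightest marker. That was Gzma on the 3 IEL arrays and Itga2 on the LP array, the latter at 2.75, 2.84, 3.03 and 5.94. The median levels of the list lay closer together, at 2.43, 2.08, 2.32 and 1.71. Klrb1c, which encodes the NK1.1 antigen, was at 1.73, 1.59, 1.20 and 1.35 in the same order of arrays, below the median on each. Khdc1a and Cma1 were below it on all 4 arrays as well. Of the 10 markers, 6 were at or above the median on the recolonized array, 4 on the colon array, 5 on the small intestinal array and 3 on the LP array. Il12rb2, a chain of the interleukin-12 receptor, was at 4.26, 3.37, 4.60 and 2.38, and S1pr5, a sphingosine phosphate receptor, at 3.10, 2.93, 2.49 and 1.94, above the median on all 3 IEL arrays. Klra9 was at 2.46 on the recolonized array and below the median on the other arrays. Whether NK cells contributed to the Ncr1 and Klrg1 levels was not tested.

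Colon IEL and the LP array, whose markers were mostly epithelial, were compared last. All 7 members had a higher value in colon IEL, by 2.63 for Cd244a, 2.38 for Fcer1g, 1.67 for Fcgr3, 0.87 for Klrk1, 0.49 for Klrg1, 0.43 for Ncr1 and 0.40 for Eomes. The LP level of Cd244a was only 0.03 above that array's median. The floor was met by 12788 genes, whose median difference was -0.44; 10.5% of them (1344 genes) were higher by 2-fold or more and 34.7% (4437 genes) were lower. Quantile normalization gave 2287 higher and 2387 lower. The 3 members that met the floor were all at least 2-fold higher, Fcgr3 through the colon array alone, and the other 4 were below the median on both arrays; nothing is read from that count. The T cell markers had a median difference of 3.65 in this pair, with 11 of 11 at least 2-fold higher, and their part in the members' differences was not tested. Small intestinal IEL set against the same array gave 4.69 for Fcer1g and 4.59 for Cd244a, at least 2-fold higher where 8.76% of all genes that met the floor were higher by as much and 15.7% lower; the other 5 members were within 2-fold. In recolonized colon IEL against the LP array the counts were 5 higher and 0 lower, where 9.41% of all genes were higher and 30.3% lower; Ncr1, Klrk1 and Klrg1 met the floor there through the recolonized array alone, so nothing is read from that count.

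The ligands of these receptors were read on the same arrays, since epithelial cells make several of them. Cdh1, which encodes E-cadherin, the ligand of KLRG1, had levels of 6.46 on the recolonized array, 4.61 on the colon array, 6.98 on the small intestinal array and 9.23 on the LP array. Cd48, the ligand of CD244, followed the lymphocytes instead, with 5.61, 5.19, 5.63 and 2.13. The NKG2D ligand genes H60b and H60c were below the median on all 4 arrays, and Ulbp1 was above it on the small intestinal array alone, at 2.56. Of the 19 listed ligand genes 13 were measured. The Raet1 genes and H60a, which also encode NKG2D ligands, were not among them. Nothing is therefore read about NKG2D ligands as a group. Clec2d and Clec2h, lectins of the family that NKR-P1 receptors bind, were lower in colon than in small intestinal IEL by log2 differences of -2.50 and -2.81, and Clec2d was higher by 1.10 on the recolonized than on the colon array. On the LP array they were at 6.89 and 8.60. Epithelial markers had median differences of -1.99 and 0.82 in these pairs, and the part of epithelial cells was not tested.

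Position was compared next. Klrk1 lies among 20 measured Klr genes in RefSeq gene order, from Klrb1 to Klra2. Within this run 7 genes were at or above the median on the recolonized array, 4 on the colon array, 7 on the small intestinal array and 1 on the LP array. In recolonized against unmanipulated colon IEL, 0 of the 8 that met the floor were at least 2-fold apart. Over all genes above the floor, 6.04% were higher by as much and 3.06% lower. A count of 0 among 8 is near these shares, so nothing is read from it. The direct neighbours of Klrk1 differed from it: Klrd1 was above the median on all 4 arrays with a difference of 0.23 between recolonized and colon IEL, and Klrc3 was below it on all 4 with -0.12. Klrc2, the next gene, had the same direction as Klrk1 with 0.78.

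Fcgr3, Fcer1g and Cd244a share a chromosome. The 3 genes that follow Cd244a are other SLAM family members, Ly9, Slamf7 and Cd48. Slamf7 had levels of 4.79 on the recolonized array, 4.76 on the colon array, 6.18 on the small intestinal array and 1.90 on the LP array, in the same order of arrays as Cd244a apart from a gap of 0.03 between the colon arrays. Itln1, the gene before Cd244a, which encodes an intelectin of secretory epithelial cells, was at 2.87, 2.11, 8.55 and 2.09. The neighbours of Fcer1g, Apoa2 and Adamts4, differed by at most 0.29 and 0.92 between any pair of arrays, against 4.69 for Fcer1g. Gp6 and Lilra5, on either side of Ncr1, were below the median on all 4 arrays.

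**Figure D5:**
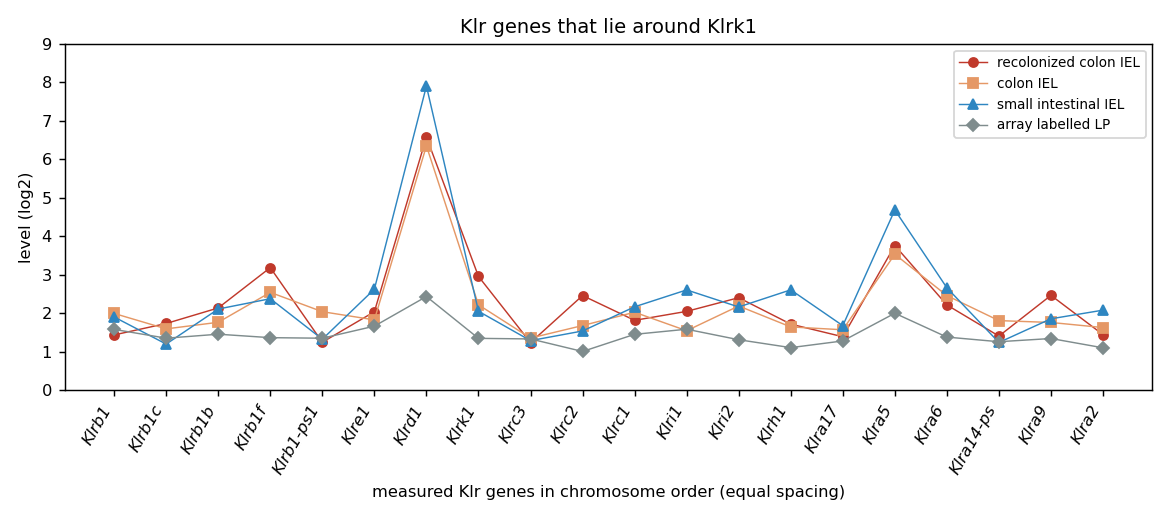
Log2 levels of 20 measured Klr genes in RefSeq gene order at equal spacing, from Klrb1 to Klra2, on the recolonized colon IEL, colon IEL, small intestinal IEL and LP arrays. Klrd1 and Klra5 are higher on the 3 IEL arrays, at 6.58, 6.35 and 7.91 and at 3.76, 3.53 and 4.68 than on the LP array, and Klrk1 is highest on the recolonized array at 2.96.

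For each gene the 3 most alike genes over the 4 arrays were sought among 12449 others, by the largest gap between levels after each gene's own mean was taken off. For Cd244a they were St8sia4, a polysialic acid transferase, with a largest gap of 0.16, Lilrb4a with 0.34 and Slamf7 with 0.37; 10 genes lay within a gap of 0.5. For Fcer1g the nearest was Apol7e with 0.16, and it was the 1 gene within 0.5. For Ncr1 they were Ift57, Il17ra and Gpr132, with gaps between 0.10 and 0.17 and 144 genes within 0.5. Klrg1 had 140 genes within 0.5, the nearest being Nxph4 with 0.03, and Fcgr3 had 673, the nearest being Pdxp with 0.05. Klrk1 and Eomes, with 803 and 2504 such genes, had patterns too common to single out any gene. Likeness over 4 arrays is a description and says nothing of function.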

How the data were processed

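RNA was extracted with Trizol and hybridised to Affymetrix mouse arrays, 1 per group, per the labels. The deposited values are log2 levels per probe set. Per the submitters' processing notes the authors used Affymetrix Expression Console; its version, the summarization, the normalization and the build are not given in those notes. Of 41345 probe sets, 23521 had a single gene symbol, 1814 had several, and the platform table had no entry for 16010. Gene IDs of 23328 matched RefSeq genes of GRCm38.p6 and 0 symbols needed updating. Where a gene had several probe sets, the brightest on average was kept, leaving 22180 genes. Cross-hybridisation between related genes (the Klr genes, the IgG receptors) was not examined.

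Differences of log2 levels were taken between array pairs. A gene counted when it was at or above the 50th percentile on the brighter array, and was called at 2-fold. No test was possible; precision is limited by the number of arrays. As a scale, the SD of the differences over 67 ribosomal protein genes was 0.59 for recolonized minus colon IEL, 0.54 for colon minus small intestinal IEL and 0.58 for colon IEL minus the LP array; the SD of the gap between the differences of both probe sets of a gene, over 968 genes with a pair of them, was 0.73, 1.08 and 1.41.

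The members and lists were chosen with earlier results of these data known. The 17 lists held 215 genes, 187 of them measured. Listed genes that were not measured are named for the NKG2D ligands only. Named are the members, up to 4 genes per list with the largest difference above the floor, gene-order neighbours and the genes most alike; marker genes and ligands given as below the median, Klrb1c, Tyrobp, Mcpt8, Tpsb2, Adgre1, Il12rb2, S1pr5, Klra9, H60b, H60c, Ulbp1, Cd48, Cd96 and Klra5 where named for their level were chosen for their role or after their values were seen. Protein sequences and a motif search in them had been planned and were not run, since no protein table was used here. Steps were run on simulated data with less noise than the ribosomal protein genes show. The planted differences were larger than most of those of the members and lay in brighter genes. That run therefore does not show how well differences like those of the members are called. Python 3.11.15, pandas 2.3.3, numpy 2.4.6 and statsmodels 0.14.6 were used. Alternatives were floors at the 25th and 75th percentile or none, thresholds of 1.5-fold and 3-fold, averaging of probe sets, centring on the median, quantile normalization, a lowess correction with a span of 0.3, and recolonized in place of unmanipulated colon IEL.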

Additional observations from a re-analysis of the deposited data

How the results depend on the processing

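No paired analysis was possible because each group is 1 array. The signs of the members' differences held under every scaling for recolonized minus colon IEL and for colon IEL minus the LP array; for colon minus small intestinal IEL those of Klrg1 and Klrk1 turned, between -0.07 and 0.47 and between -0.08 and 0.46. The median over all genes above the floor was -0.30 for colon minus small intestinal IEL and 0.09 after quantile normalization, and -0.44 and 0.07 for colon IEL minus the LP array.

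Members: at 3-fold, 0 were higher and 0 lower for recolonized minus colon IEL and 0 higher for colon minus small intestinal IEL; in that second comparison, 1 was lower under quantile normalization and 1 under the lowess correction. With the recolonized array in place of colon IEL, 2 were higher and 1 lower against small intestinal IEL, and 5 higher against the LP array. The red cell list's median against small intestinal IEL, 4.48 with colon IEL, was then -0.32. Each member has 1 probe set, so averaging probe sets left its values as they were.

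All genes: at 1.5-fold, 2402 were higher and 1298 lower for recolonized minus colon IEL, 2024 and 4785 for colon minus small intestinal IEL, and 2750 higher for colon IEL minus the LP array. At 3-fold these were 146 and 109, 163 and 1569, and 493 and 2789. Under quantile normalization, 834 were higher and 874 lower in the first comparison, 1650 higher and 1674 lower in the second, and 2287 and 2387 in the third; that step gives all arrays 1 distribution by construction. After centring, 1603 were higher in the second and 2847 in the third. After the lowess correction, 437 were higher in the first, 1653 lower in the second and 2356 lower in the third. With a floor at the 75th percentile, 486 were higher in the second. The cause of these shifts, other than fewer or more genes passing a changed threshold or floor, was not tested. Signal over background was not measured. Eomes, Klrk1, Klrg1, Ncr1, Fcgr3 and Cd244a each had levels near or below the array median on at least 1 array.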
